A study of Equisetum hyemale and Pteris vittata and Marchantia polymorpha with 22 samples.

Results

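MYB transcription factors were followed in 5 land plant species kept for 8 h in the dark under hypoxia (1% O2) or in air (21% O2). MYB proteins carry 1 or more imperfect repeats of a DNA-binding helical domain. Members with a pair of repeats (R2R3) form one of the largest families of plant regulators and are known in *Arabidopsis thaliana* for control of phenylpropanoid and flavonoid synthesis, cell walls, cuticle and suberin, epidermal cell shape, reproductive development and drought signalling. Those with 3 repeats (3R) act on cell-cycle genes, and many single-repeat relatives take part in light, nutrient and hormone responses.

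A feature (a transcript, locus or assembled gene of a deposited table) was taken as a MYB feature when the description of its *A. thaliana* best hit matched a MYB term. The best hits of 4 circadian clock genes were left out by rule. This gave 334 MYB features of 180885 in all, with 59 different best hits. They were 25 of 13572 transcripts in *M. polymorpha* (a liverwort), 71 of 21442 loci in *P. patens* (a moss), 42 of 16892 loci in *S. moellendorffii* (a lycophyte), 143 of 55254 assembled genes in *E. hyemale* (a horsetail) and 53 of 73725 assembled transcripts in *P. vittata* (a fern). The *P. vittata* transcripts belong to 33 Trinity genes. A best hit names the most similar *A. thaliana* gene in the deposited table and does not establish orthology, and several features often share the same hit. AT2G01060, a MYB-like factor of the MYB-CC type, was the best hit of 33 features in all 5 species, MYB106 of 21 and KUA1 of 20. The sequences of the members are not shown here, because the tables hold none.

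The study asked how the transcriptional response to low oxygen differs between land plant lineages. Its authors report MYB and ERF orthogroups as the most conserved of the transcription factors raised by hypoxia, in most species compared. That result counts an orthogroup with any regulated gene, and includes *O. sativa* and *A. thaliana*. Best hits and the test used here differ in unit and method, so the counts below do not test it. Both groups were kept in darkness at the same time of day, and the labels give neither with a mutation or transgene. The 22 libraries comprised 3 hypoxia and 3 air libraries of *E. hyemale*, and 2 and 2 of each other species. Thalli, gametophores or shoots of several plants were pooled in each, and *E. hyemale* differed from the other species in growing in soil and in the kit used for its RNA. In such bulk RNA, fewer cells of a type and less RNA per cell cannot be told apart.

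Depth was not given and was estimated from the spacing of the low values, at 16.2 to 28.9 M (mega) reads per library. By this estimate 1 read stood for 0.0346 to 0.0615 CPM (counts per M reads), and the read numbers below rest on it. It is least firm in the horsetail, where 36.9% to 42.2% of low values per library lay within 0.1 read of a whole number. Features of the fermentation enzymes SUS, PDC and ADH had a summed level of 3435 to 3522 CPM under hypoxia against 1436 to 1654 CPM in air in *M. polymorpha*. The same sum under hypoxia was 371 to 456 CPM in the moss (air 229 to 254), 5129 to 6086 CPM in the lycophyte (air 621 to 1981), 4070 to 5191 CPM in the horsetail (air 925 to 1076) and 835 to 922 CPM in the fern (air 731 to 777). The hypoxia libraries were above the air libraries in every species. Markers of green tissue (RBCS, LHC and PSAD) were present in every library, at summed levels from 2314 to 20430 CPM. Their sum was lower under hypoxia in the moss (14279 to 15630 CPM against 18233 to 18906 CPM in air) and in the horsetail (2314 to 2610 CPM against 2987 to 3253 CPM in air), and overlapped in the other species. Whether this has a part in the MYB values was not tested. The horsetail values were deposited in an order that does not match the gene names, and every value given here follows the restored order.

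Across the family, 4 of 334 MYB features were called different between hypoxia and air, all in *M. polymorpha*, with 1 higher and 3 lower under hypoxia. Called means a Benjamini-Hochberg adjusted p (FDR) of 0.01 or less by limma and a log2 fold change (log2FC) on log2(CPM + 1) above 1 or below -1. A second count needs no test: a log2FC beyond 1 with every hypoxia library on 1 side of every air library. It took in 7 members higher and 3 lower, of which the 4 called ones are part. Of all features, limma called 1.47% higher and 1.35% lower in the liverwort, 0.0700% and 0.0140% in the moss and 0.673% and 0.0452% in the horsetail. In the lycophyte and the fern it called 0.00% either way, so the called count carries no information there. By libraries apart, the shares of all features by table were 0.336% to 2.83% higher and 0.0237% to 1.68% lower. The log2FC of 287 members, or 85.9%, lay within 0.5 of zero. The median log2FC of the members was -0.06 in the liverwort, 0.04 in the moss, -0.01 in the lycophyte, 0.08 in the horsetail and 0.04 in the fern, while the median over all features was 0.00 in each table.

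**Figure D1:**
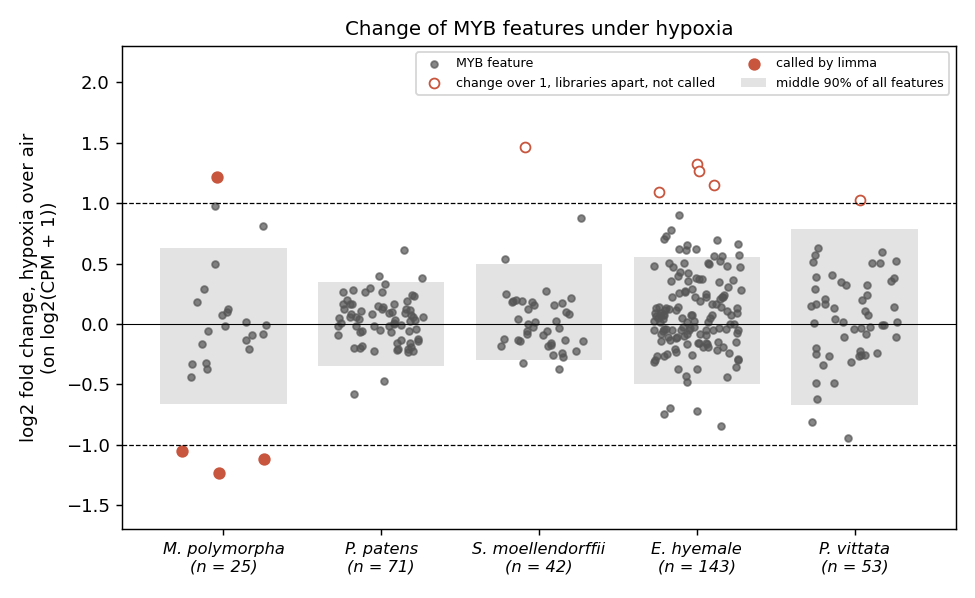
Log2 fold change of hypoxia over air, on log2(CPM + 1), for each MYB feature (points) in the 5 species, with the middle 90% of all features of the same table as grey bars and dashed lines at 1 and -1. The 4 filled red points, 1 above and 3 below, are the members called in *M. polymorpha*, and 6 open red points in the lycophyte, the horsetail and the fern lie above 1 with libraries apart.

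In *M. polymorpha*, 1 of 25 MYB transcripts was called higher and 3 were called lower, where 1.47% and 1.35% of all transcripts were called. The libraries-apart count gave the same numbers, 1 and 3, against 1.67% and 1.68% of all transcripts. At an unadjusted limma p under 0.05, 4 members were higher and 4 lower, where 15.4% and 15.8% of all transcripts were. At any size of change, 7 members had libraries apart and higher and 9 apart and lower, against 30.1% and 30.4% of all transcripts. The transcripts of the best hits MYB33, MYB20 and MYB84 were lower and that of DUO1 was higher. In *A. thaliana*, MYB33 is a GAMYB factor of gibberellin signalling and anther development, MYB20 acts in secondary wall and lignin formation, MYB84 in axillary meristem formation, and DUO1 in the division and differentiation of the male germline.

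Mapoly1089s0002.1, with the best hit MYB33, had 40.8 and 34.9 CPM under hypoxia against 82.7 and 83.8 CPM in air. Both hypoxia libraries lay below both air libraries, by more than the spread within either pair, and the log2FC was -1.12 ± 0.11 (SE, FDR by limma 0.0012). Mapoly0090s0091.1, with the best hit MYB20, had 12.2 and 10.9 CPM under hypoxia against 31.1 and 26.1 CPM in air, a log2FC of -1.23 ± 0.13 (SE, FDR by limma 0.0015). It was the largest decrease among the MYB transcripts of the liverwort. Mapoly0034s0034.1, with the best hit MYB84, had 14.9 and 17.4 CPM under hypoxia against 33.8 and 35.3 CPM in air, a log2FC of -1.05 ± 0.12 (SE, FDR by limma 0.0017). The other transcript with this best hit, Mapoly0874s0001.1, had 105 CPM on average in both conditions and a log2FC of -0.01.

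Mapoly0019s0071.1, with the best hit DUO1, had 5.68 and 6.54 CPM under hypoxia against 1.91 and 2.22 CPM in air. In reads, these levels correspond to about 112 and 143 under hypoxia and 36 and 54 in air. The groups did not overlap, and the log2FC was 1.21 ± 0.16 (SE, FDR by limma 0.0027). With a pseudocount of 5 CPM it was 0.65, under the threshold of 1. Each of these 4 calls depended on both air libraries: without air replicate 1 or without air replicate 2, none of them passed, with log2FC values of 1.14 and 1.28 for DUO1, -1.13 and -1.11 for MYB33, -1.11 and -1.36 for MYB20 and -1.08 and -1.02 for MYB84. FDR by limma in these fits with a single air library was 0.0111 to 0.0291. The MYB84 transcript also missed the threshold of 1 without hypoxia replicate 1 (log2FC -0.95) and with a pseudocount of 5 CPM (-0.90).

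**Figure D2:**
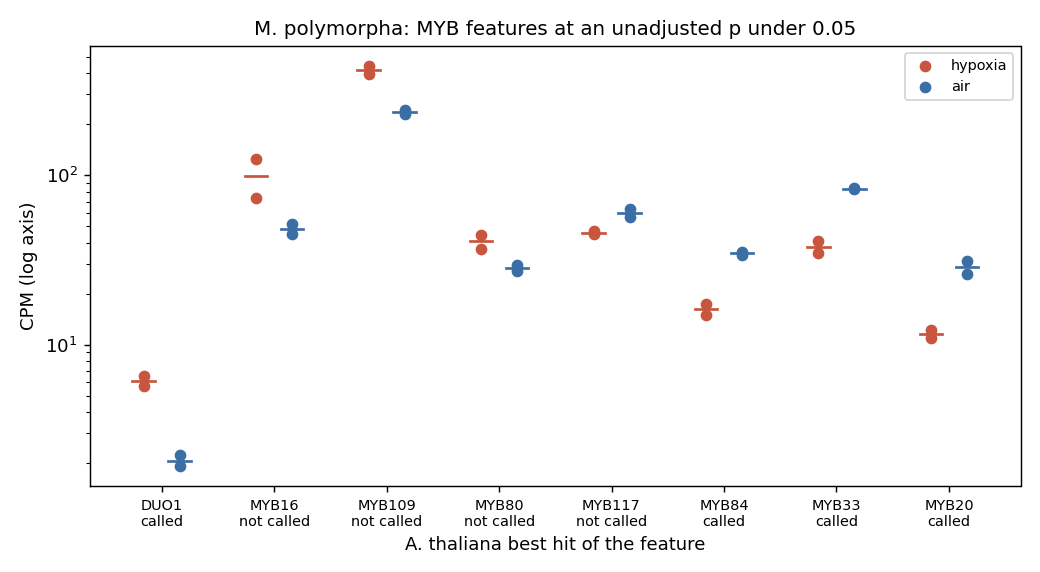
CPM in each library (points, log axis) and the mean (bars) of the 8 *M. polymorpha* MYB transcripts with an unadjusted p under 0.05, hypoxia in red and air in blue, ordered by log2FC. The transcript with the best hit DUO1 lies at 5.68 and 6.54 CPM under hypoxia against 1.91 and 2.22 CPM in air, and those of MYB84, MYB33 and MYB20 lie lower under hypoxia in both libraries.

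The most abundant MYB transcripts of *M. polymorpha* changed by less than the threshold of 1. Mapoly0032s0153.1, with the best hit MYB44, a factor of abscisic acid signalling and stomatal closure in *A. thaliana*, had 688 and 752 CPM under hypoxia against 666 and 650 CPM in air. Its groups were apart by little, and the log2FC was 0.13 ± 0.12 (SE, FDR by limma 0.52). Mapoly0007s0271.1, with the best hit MYB109, had 394 and 442 CPM under hypoxia against 244 and 230 CPM in air. Its log2FC of 0.81 ± 0.11 (SE) had an FDR of 0.0029 by limma but stayed under the threshold of 1.

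Further transcripts were picked out here after their values were seen. Mapoly0096s0058.1, with the best hit MYB16, a MIXTA-type factor of cuticle and epidermal cell shape, had 73.7 and 125 CPM under hypoxia against 45.3 and 51.2 CPM in air (log2FC 0.98, FDR by limma 0.017). The hypoxia libraries were the more unequal pair and both lay above air. Mapoly0024s0094.1, with the best hit MYB80 of tapetum and pollen development, had 36.8 and 44.5 CPM under hypoxia against 27.4 and 29.4 CPM in air, a log2FC of 0.50. Mapoly0008s0029.1, with the best hit MYB117, a factor of organ boundaries, had 44.8 and 47.0 CPM under hypoxia against 56.4 and 62.9 CPM in air, a log2FC of -0.37. Mapoly0150s0001.1, with the 3R best hit MYB3R4, was at 0.42 and 0.33 CPM under hypoxia against 0.21 and 0.86 CPM in air, about 8 and 7 reads against 4 and 21, and its groups overlapped. Summed over its 25 MYB transcripts, the liverwort had 1956 and 2115 CPM under hypoxia against 1827 and 1836 CPM in air.

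The moss *P. patens* had the narrowest range of log2FC among its MYB members of the 5 species. Of its 71 loci, 0 were called higher and 0 lower by limma, where 0.0700% and 0.0140% of all loci were called. The libraries-apart count was also 0 and 0, against 0.336% and 0.0979% of all loci. At an unadjusted limma p under 0.05, 3 members were higher and 2 lower, against 5.45% and 5.46% of all loci. Libraries apart at any size of change gave 14 higher and 11 lower, with 20.5% and 20.9% of all loci. The log2FC values of the 71 loci ran from -0.58 to 0.61, and 69 of them lay within 0.5 of zero.

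Pp3c20_8950, the moss locus with the best hit MYB44, had 163 and 149 CPM under hypoxia against 146 and 171 CPM in air (log2FC -0.02 ± 0.12 SE, FDR by limma 0.99). Pp3c4_6870, with the best hit AT2G01060, had 152 and 135 CPM under hypoxia against 138 and 131 CPM in air (log2FC 0.09 ± 0.10 SE, FDR by limma 0.84). The groups overlapped for both of these, the most abundant MYB loci of the moss. At the ends of the range, also picked after their values were seen, stood Pp3c15_23090 and Pp3c16_9970. Pp3c15_23090, with the best hit KUA1, a single-repeat factor of cell expansion, had 34.5 and 31.4 CPM under hypoxia against 21.1 and 21.3 CPM in air (log2FC 0.61, FDR by limma 0.078). Pp3c16_9970, with the best hit MYB106, a factor of trichome and cuticle formation, had 13.4 and 9.06 CPM under hypoxia against 17.1 and 16.9 CPM in air (log2FC -0.58, FDR by limma 0.29). Neither locus passed the test. The moss locus with the best hit DUO1, Pp3c8_16720, averaged 5.06 CPM under hypoxia and 5.99 CPM in air, with overlapping groups.

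In *S. moellendorffii*, 0 of 42 MYB loci were called in either direction, and limma called 0.00% of all loci higher and 0.00% lower, so this count carries no information about the family. The smallest FDR by limma was 0.131 among the members and 0.0813 over the whole table. By libraries apart, 1 member was higher and 0 were lower, against 1.21% and 0.0237% of all loci. At an unadjusted limma p under 0.05, 5 members were higher and 0 lower, against 10.4% and 5.42% of all loci. Apart at any size were 15 higher and 8 lower, against 26.0% and 23.5% of all loci.

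Locus 81112, with the best hit MYB97, a GAMYB relative that acts in pollen tubes of *A. thaliana*, had 15.1 and 9.13 CPM under hypoxia against 2.49 and 5.18 CPM in air. The 2 hypoxia libraries were the higher ones, the libraries within each pair differed widely, and the log2FC was 1.46 ± 0.34 (SE, FDR by limma 0.16). The second locus with this best hit, 93784, averaged 9.43 CPM under hypoxia and 8.72 CPM in air. Locus 99462, with the best hit MYB44, had 132 and 107 CPM under hypoxia against 55.1 and 74.5 CPM in air, a log2FC of 0.88 ± 0.17 (SE, FDR by limma 0.13). Its groups were apart, and leaving out each library in turn gave 0.66 to 1.09. The libraries-apart count became 2 without hypoxia replicate 3 or without air replicate 3.

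The most abundant MYB loci of the lycophyte moved little. Locus 439294, with the best hit KUA1, had 272 and 256 CPM under hypoxia against 225 and 234 CPM in air (log2FC 0.20 ± 0.07 SE, FDR by limma 0.29). Locus 140962, with the best hit MYB91 (AS1, a factor of leaf polarity), had 124 and 122 CPM under hypoxia against 109 and 108 CPM in air (log2FC 0.18 ± 0.06 SE, FDR by limma 0.27). Both were apart between the groups without passing the test. Summed over the 42 loci, the level was 1227 and 1276 CPM in the hypoxia libraries against 1143 and 1174 CPM in the air libraries.

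*E. hyemale* held the most MYB features and, with 3 libraries in each group, the most replicates. Of its 143 MYB genes, 0 were called higher and 0 lower by limma, where 0.673% and 0.0452% of all genes were called. By libraries apart, 4 members were higher and 0 lower, against 1.33% and 0.333% of all genes. At an unadjusted limma p under 0.05, 21 of 143 were higher and 6 lower, against 6.71% and 5.99% of all genes. Apart at any size of change were 24 higher and 10 lower, against 9.66% and 9.38% of all genes. The 4 genes apart had the best hits MYB107, MYB9 and, in a pair, HHO2. In *A. thaliana*, MYB107 and MYB9 activate suberin synthesis in the seed coat, and HHO2 belongs to the HRS1/HHO regulators of nitrate and phosphate responses, single-repeat GARP proteins that the annotation describes as MYB-like.

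Ehym_DN104986_c0_g2, with the best hit MYB107, had 7.32, 11.2 and 11.4 CPM under hypoxia against 4.39, 3.73 and 3.54 CPM in air. The lowest hypoxia library was above the highest air library, and the log2FC was 1.15 ± 0.22 (SE, FDR by limma 0.028). Ehym_DN104986_c0_g1, with the best hit MYB9, had 6.13, 4.28 and 3.04 CPM under hypoxia against 2.80, 1.27 and 0.27 CPM in air, a log2FC of 1.26 ± 0.38 (SE, FDR by limma 0.17). The air library of 0.27 CPM rests on about 6 reads, and the gap between the nearest libraries of the groups was small. These 2 genes come from the same assembly component, so reads they share could have been divided between them. The other genes with the best hit MYB107, Ehym_DN108593_c2_g1 and Ehym_DN108593_c2_g2, had log2FC values of 0.47 and 0.35.

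Ehym_DN105571_c0_g1, with the best hit HHO2, had 2.60, 2.85 and 4.58 CPM under hypoxia against 1.17, 0.53 and 0.48 CPM in air, a log2FC of 1.33 ± 0.26 (SE, FDR by limma 0.031). Ehym_DN105571_c0_g2, from the same component and with the same best hit, had 2.36, 1.57 and 3.90 CPM under hypoxia against 0.96, 0.46 and 0.51 CPM in air, a log2FC of 1.095 ± 0.27 (SE, FDR by limma 0.086). Their groups did not overlap, and the air libraries held about 10 to 23 reads of each gene. At a pseudocount of 5 CPM both log2FC values fell under 1, to 0.54 and 0.42. Ehym_DN110738_c11_g1, the most abundant MYB gene of the horsetail and also an HHO2 hit, had 134, 104 and 116 CPM under hypoxia against 89.8, 87.5 and 85.4 CPM in air. Its groups were apart, with a log2FC of 0.42 ± 0.13 (SE, FDR by limma 0.17).

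Of the 15 horsetail genes with HRS1, HHO2 or HHO3 as best hit, 12 had a log2FC above zero, from -0.29 to 1.33 in all, with a median of 0.35 against 0.00 over all genes. In 5 of them every hypoxia library exceeded every air library, and in 0 the reverse held, beside the shares of 9.66% and 9.38% over all genes. Several of the 15 genes come from the same assembly component, so they are not independent. The group was named after the tables were read and holds the HHO2 pair already picked for its change. Its values therefore describe these genes and are not a test of the group. None was called by limma.

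**Figure D3:**
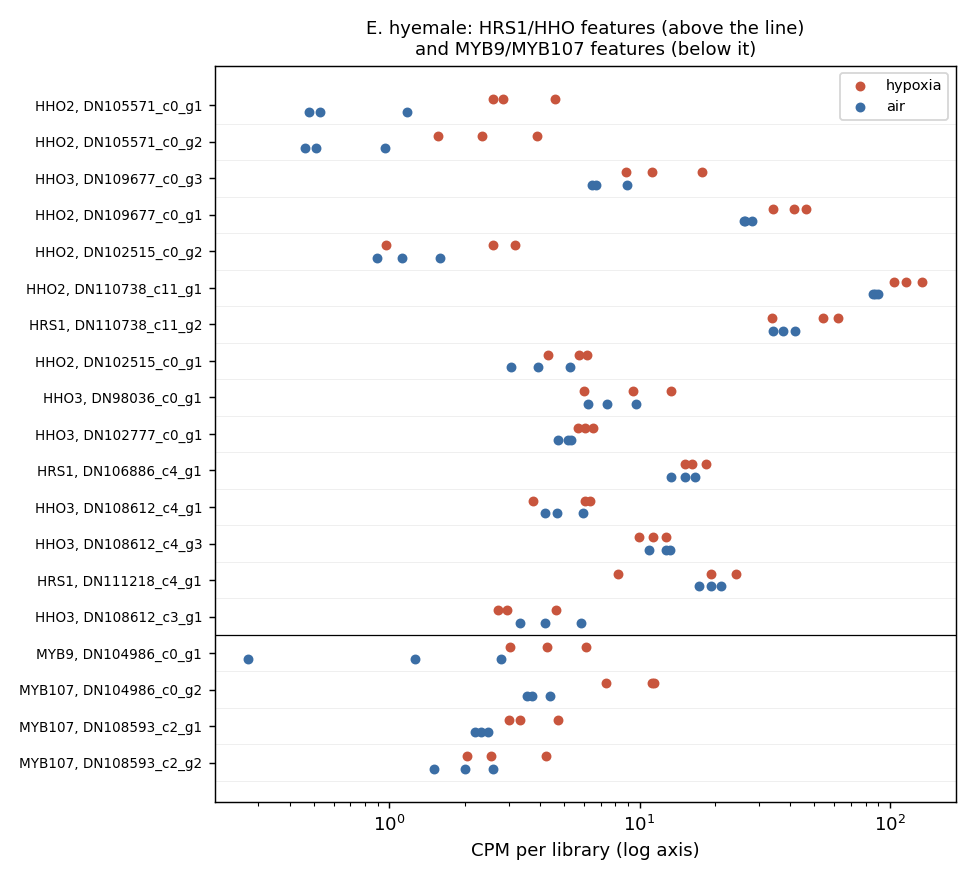
CPM in each of 3 hypoxia (red, upper) and 3 air libraries (blue, lower) on a log axis for 15 HRS1/HHO genes of *E. hyemale* above the line and the 4 MYB9/MYB107 genes below it, each set ordered by log2FC. The groups do not overlap for the uppermost pair of HHO2 genes, at 1.57 to 4.58 CPM under hypoxia against 0.46 to 1.17 CPM in air, and they overlap for 10 of the 15 HRS1/HHO genes.

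Other groups of the horsetail contained members that moved both ways, none of them called. Among its 26 genes with the best hits MYB44, MYB70, MYB73 or MYB77, the abscisic acid and stress group, 5 were apart and higher and 0 apart and lower at any size of change (9.66% and 9.38% of all genes), with a median of 0.08. The most abundant of them, Ehym_DN111207_c5_g2 with the best hit MYB73, had 41.1, 50.8 and 43.4 CPM under hypoxia against 26.6, 29.0 and 31.1 CPM in air, a log2FC of 0.62 ± 0.14 (SE, FDR by limma 0.055). The most abundant 3R gene, Ehym_DN109300_c1_g1 with the best hit MYB3R5, had 35.5, 33.9 and 21.4 CPM under hypoxia against 29.9, 31.1 and 33.2 CPM in air, with hypoxia libraries on both sides of air. The second most abundant member, Ehym_DN109751_c5_g2 with the best hit AT3G13040, had 87.7, 74.1 and 56.5 CPM under hypoxia against 72.1, 70.3 and 79.7 CPM in air and likewise overlapped.

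The 6 lower members at an unadjusted p under 0.05, picked after their values were seen, had the best hits MYB58, AT5G06800, AT2G01060, MYB117 and, for a pair, MYB4. Ehym_DN107435_c0_g2, with the best hit MYB58, an activator of lignin genes, had 11.6, 10.5 and 14.4 CPM under hypoxia against 22.6, 16.7 and 24.2 CPM in air (log2FC -0.75, FDR by limma 0.091). Ehym_DN104019_c0_g2, with the MYB-CC best hit AT5G06800, had 17.4, 11.4 and 14.04 CPM under hypoxia against 25.3, 22.3 and 24.1 CPM in air (log2FC -0.72) and the smallest FDR of the 6, 0.078 by limma. Ehym_DN79051_c0_g1, with the best hit MYB4, a repressor of the C4H gene of phenylpropanoid synthesis, had 0.14, 0.11 and 0.77 CPM under hypoxia against 2.19, 1.201 and 0.83 CPM in air (log2FC -0.84, FDR by limma 0.18). The other MYB4 hit, Ehym_DN132373_c0_g1, was also at a low level, with a log2FC of -0.48. Ehym_DN98045_c2_g1, with the best hit AT2G01060, had a log2FC of -0.43, and Ehym_DN87100_c0_g1, with the best hit MYB117, one of -0.35. In each of the 6 the hypoxia libraries lay below the air libraries.

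In *P. vittata*, 0 of 53 MYB transcripts were called, and limma called 0.00% of all transcripts higher and 0.00% lower, so again this count says nothing about the family. The smallest FDR by limma was 0.311 among the members and 0.184 over the whole table. By libraries apart, 1 member was higher and 0 were lower, against 2.83% and 1.54% of all transcripts. At an unadjusted limma p under 0.05, 2 were higher and 3 lower, against 6.03% and 4.23% of all transcripts. Apart at any size of change were 16 higher and 11 lower, against 21.6% and 20.9%. Summed to Trinity genes, 0 of 33 MYB genes were called, where limma called 0.0166% of all Trinity genes higher and 0.00553% lower. None of the 33 passed by libraries apart, against 1.45% higher and 0.182% lower, and at an unadjusted limma p under 0.05 there were 5 higher and 2 lower, against 7.94% and 6.26% of all Trinity genes. At any size of change 13 were apart and higher and 8 apart and lower, against 22.5% and 24.4%.

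The transcript apart was TRINITY_DN29448_c0_g1_i1, with the best hit AT2G01060, at 4.10 and 5.52 CPM under hypoxia against 3.09 and 0.96 CPM in air (log2FC 1.03 ± 0.42 SE, FDR by limma 0.50). Another transcript of the same Trinity gene, TRINITY_DN29448_c0_g1_i3, went the other way, with 0.81 and 0.92 CPM under hypoxia against 2.65 and 2.52 CPM in air, a log2FC of -0.95. The gene as a whole, TRINITY_DN29448_c0_g1, had 51.3 and 52.2 CPM under hypoxia against 51.2 and 52.9 CPM in air, a log2FC of -0.01. The difference thus lay between assembled transcripts and not in their sum.

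TRINITY_DN35583_c0_g1_i1, with the best hit MYB44, had 86.3 and 71.4 CPM under hypoxia against 124 and 118 CPM in air (log2FC -0.62 ± 0.15 SE, FDR by limma 0.33). Its Trinity gene, TRINITY_DN35583_c0_g1, had 108 and 115 CPM under hypoxia against 161 and 170 CPM in air, a log2FC of -0.56 ± 0.12 (SE, FDR by limma 0.097). Both measures had hypoxia below air in each library. TRINITY_DN28152_c0_g1_i1, the only transcript of its gene and a MYB3R5 hit, had 13.3 and 12.4 CPM under hypoxia against 17.9 and 18.8 CPM in air (log2FC -0.49 ± 0.16 SE, FDR by limma 0.43). TRINITY_DN28716_c0_g2_i3, a KUA1 hit, had 55.1 and 47.8 CPM under hypoxia against 50.2 and 49.8 CPM in air, and the sum of its Trinity gene, TRINITY_DN28716_c0_g2, was 92.7 and 81.9 CPM under hypoxia against 78.3 and 80.0 CPM in air. Picked after its values were seen, TRINITY_DN32503_c0_g1_i1 with the best hit MYB70 had 53.1 and 41.6 CPM under hypoxia against 29.7 and 33.0 CPM in air (log2FC 0.57, FDR by limma 0.41). This MYB70 transcript and the MYB44 hit above, of the same stress group, thus lay on opposite sides. The other MYB70 hit of the fern, TRINITY_DN12444_c0_g1, had 1.12 and 2.13 CPM under hypoxia against 1.89 and 1.57 CPM in air (log2FC -0.08), with overlapping groups. Of the 4 fern transcripts of this group, 1 had a log2FC above zero.

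Of the 59 best hits, 0 had a member with libraries apart and a log2FC beyond 1 in the same direction in 2 or more species, a threshold that 10 of 334 members pass. At any size of change, the summed level of 10 best hits was apart in 2 or more species, in the same direction for 4 and in opposite directions for 6. Of single features, 9.66% to 30.1% by table were apart and higher at any size, and 9.38% to 30.4% apart and lower. The count of 10 is therefore not read as a trait of the family. ZRF1a, a DnaJ protein with MYB-like repeats, was higher in the liverwort, the lycophyte and the fern (log2FC 0.18, 0.19 and 0.27), MYB109 in the liverwort and the lycophyte (0.81 and 0.25), and AT2G38300 in the moss and the lycophyte (0.17 in each). MYB4 was lower in the liverwort and the horsetail (-0.33 and -0.93). The sum of KUA1 was higher in the moss, the lycophyte and the fern and lower in the liverwort. MYB44, present in all 5 species and among the 6, is given in full. Summed over the features with this hit, the level was 688 and 752 CPM under hypoxia against 666 and 650 CPM in air in the liverwort, and 163 and 149 CPM under hypoxia against 146 and 171 CPM in air in the moss. In the lycophyte the sum was 144 and 117 CPM under hypoxia against 64.9 and 84.4 CPM in air. The horsetail had 18.3, 20.9 and 14.9 CPM under hypoxia against 11.4, 9.42 and 9.60 CPM in air, and the fern 108 and 115 CPM under hypoxia against 161 and 170 CPM in air. The sum was thus higher under hypoxia in the lycophyte and the horsetail (log2FC 0.80 and 0.76), lower in the fern (-0.56) and about level in the bryophytes (0.13 and -0.02). Each table was normalized by itself, so these levels are not compared between species, and the difference between species was not tested.

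**Figure D4:**
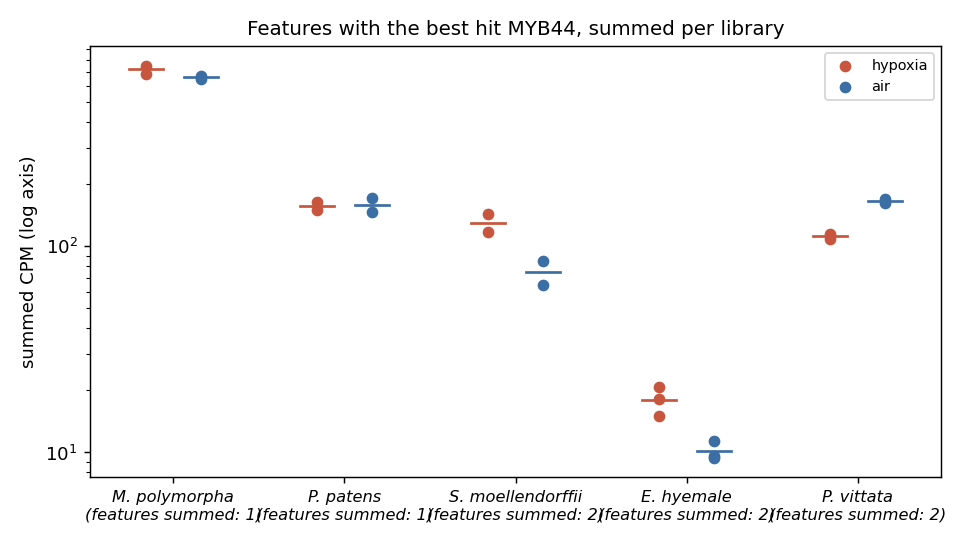
Summed CPM (log axis) of the features with the best hit MYB44 in each library of the 5 species, hypoxia in red left of air in blue, with the mean as a bar. The hypoxia libraries lie above air in *S. moellendorffii* (144 and 117 against 64.9 and 84.4 CPM) and *E. hyemale* and below air in *P. vittata* (108 and 115 against 161 and 170 CPM).

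By role, the stress group of MYB44, MYB70, MYB73 and MYB77 had 35 members in 5 species, 0 of them called, with a median log2FC of 0.08 and, at an unadjusted limma p under 0.05, 7 higher and 1 lower. The share of all features at that level was 10.3% to 31.2% by table, both directions together, so these counts over species have no single background. The 9 GAMYB members were spread from -1.12 in the liverwort to 1.46 in the lycophyte, with 1 called lower, and the *P. patens* pair with the best hit MYB33 had log2FC values of -0.22 and -0.06. The 5 members of the 3R group, regulators of mitotic genes, had log2FC values from -0.49 to -0.08, and 0 were called, with 1 lower at an unadjusted limma p under 0.05. This group lacks the features with the 3R best hit MYB3R1, whose description did not match the MYB terms, and those 7 features lay on both sides, from -0.54 to 0.47. The 12 members with MYB20 or MYB43 as best hit included 1 called lower, the liverwort transcript, while the 4 *P. patens* loci of this group ranged from 0.08 to 0.28. The 32 epidermal members (MYB16, MYB17 and MYB106) and the 35 members of the boundary group around MYB117 had medians of 0.04 and -0.06 and 0 calls. At an unadjusted limma p under 0.05, 1 epidermal member was higher and 1 lower, and 4 of the boundary group were higher and 2 lower. The 11 members of the repressor group around MYB4 had a median of -0.18, with 1 higher and 3 lower at an unadjusted limma p under 0.05 and 0 calls. The 25 of the KUA1 type had a median of 0.04, with 2 higher and 0 lower at that level and 0 calls. No feature had a best hit among the listed activators of flavonol, anthocyanin or proanthocyanidin synthesis, or among MYB2 and its relatives, which respond to drought and low oxygen in *A. thaliana*. MYB5, the best hit of 2 horsetail genes, was grouped with other R2R3 hits and is not on these lists. Its sum was 1.21, 1.75 and 5.21 CPM under hypoxia against 0.52, 1.46 and 0.85 CPM in air, with overlapping groups.

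The genes that MYB proteins act with or upon were read from further lists of best hits. The bHLH and WD40 partners of the MYB-bHLH-WD40 complex had 0 features called in any species (8 in the liverwort, 13 in the moss, 6 each in the lycophyte and the horsetail and 1 in the fern). Of these 34, 6 were higher and 4 lower when an unadjusted limma p under 0.05 was used, against 10.3% to 31.2% of all features by table, both directions together. In *M. polymorpha*, 5 of 65 features of phenylpropanoid and flavonoid enzymes were called lower and 0 higher, where 1.35% and 1.47% of all transcripts were, with a median log2FC of -0.23. By unadjusted p under 0.05, 20 of the 65 were lower and 11 higher, against 15.8% and 15.4% of all transcripts. The 5 called lower had the best hits CHS, the entry enzyme of flavonoid synthesis, LDOX and, for 3 transcripts, the flavonoid 3'-hydroxylase. The CHS hit Mapoly0070s0072.1 had 36.2 and 27.3 CPM under hypoxia against 71.2 and 74.5 CPM in air (log2FC -1.19 ± 0.14 SE, FDR by limma 0.0018). In *E. hyemale*, 2 of 34 such features were called higher (0.673% of all genes), both C4H hits, and 0 lower. By unadjusted p under 0.05, 7 of the 34 were higher and 8 lower (6.71% and 5.99% of all genes). Their median log2FC was -0.04. The C4H hit Ehym_DN106702_c9_g1 had 802, 445 and 477 CPM under hypoxia against 54.9, 47.6 and 54.3 CPM in air (log2FC 3.38 ± 0.20 SE, FDR by limma 1.4e-05). In *P. vittata*, 28 of 103 transcripts of these enzymes were higher by libraries apart and 0 lower, against 2.83% and 1.54% of all transcripts. By unadjusted p under 0.05, 29 were higher and 1 lower (6.03% and 4.23% of all transcripts), and limma called 0. The 103 transcripts have 10 best hits and were not summed to Trinity genes. Transcripts of the same Trinity gene are not independent. In *P. patens* and *S. moellendorffii* limma called 0 of 74 each. By unadjusted p under 0.05, 2 were higher and 6 lower in the moss (5.45% and 5.46% of all loci) and 10 and 10 in the lycophyte (10.4% and 5.42%).

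Wax and suberin enzymes had 1 of 8 features called higher in *M. polymorpha*, where 1.47% of all transcripts were: Mapoly0007s0149.1, with the feruloyl transferase ASFT of suberin as best hit, had 51.4 and 42.2 CPM under hypoxia against 18.96 and 16.4 CPM in air (log2FC 1.35 ± 0.13 SE, FDR by limma 0.0012). In *E. hyemale*, limma called 0 of 19 such features, with 7 higher and 1 lower by unadjusted p under 0.05 (6.71% and 5.99% of all genes). Their summed level was 459 to 518 CPM under hypoxia against 356 to 386 CPM in air. The sum was also higher in the fern (527 to 540 against 485 to 489 CPM) and the liverwort (408 to 438 against 367 to 368 CPM). Members with the best hit MYB107 or MYB9 were present in the horsetail and not in the fern or the liverwort. The fern also had transcripts with the best hits MYB53 and MYB96, left outside the MYB set because their descriptions did not match. Their log2FC values were 0.28 to 0.56 for MYB53, all from the same Trinity gene, and 0.05 to 0.57 for MYB96, none called. Whether any of these hits has a part in the sums was not tested. The sums overlapped in the moss and in the lycophyte, the latter with a MYB107 hit. Mitotic (G2/M) genes, targets of 3R proteins, had 0 of 49 features called by limma over the 5 species, with 8 higher and 3 lower by unadjusted p under 0.05. All 8 were among the 20 *E. hyemale* genes of the list, where 6.71% of all genes were higher at that level. The summed level of the list there was 214 to 228 CPM under hypoxia against 160 to 168 CPM in air. The 3 lower were among the 13 moss loci, where 5.46% of all loci were lower. The sum was lower under hypoxia in the moss (45.9 to 52.0 against 55.2 to 59.2 CPM) and the liverwort (94.1 to 97.8 against 101 to 102 CPM). It overlapped in the lycophyte and the fern. Whether the MYB members have a part in these levels was not tested.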

How the data were processed

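Shoots, thalli or gametophores of 5 species were sequenced as poly(A) mRNA. According to the study's methods, the authors trimmed reads, pseudo-aligned them with Kallisto to each species' reference transcriptome, or in the horsetail and the fern to Trinity assemblies, and removed loci with few reads (versions are not given in the sources used here). Per library they deposited log2 CPM scaled by TMM factors in edgeR, without a pseudocount. In the *E. hyemale* table a spreadsheet error text stands for 0. Its per-library values were reassigned to the identifiers in sorted order, which moved their correlation with the deposited average log2 CPM across 55254 genes to 0.9996, against 0.0103 as deposited. The deposited tables also hold the authors' log2 fold changes and FDR values, which were not used.

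Values were turned back to CPM, and each species was tested for hypoxia against air with limma 3.58.1 (R 4.3.3) on log2(CPM + 1), with a variance trend and Benjamini-Hochberg adjustment over all features of the table. The thresholds, FDR 0.01 and a log2FC of 1, are those with which the study counted regulated genes per species. It also used an FDR of 0.05, tried here as an alternative. The count model was not fitted because the estimated reads are not whole: 36.9 to 77.9% of low values per library lay within 0.1 read of a whole number. The analysis was tested on simulated data with seed 1. Further tools were pandas 2.3.3, numpy 2.4.6 and matplotlib 3.10.9 under Python 3.11.15. Transcript lengths were not used, so CPM of different genes were not compared. For *P. vittata*, all transcripts of a Trinity gene were also summed.

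Columns were matched to labels by species, condition and number. In *S. moellendorffii* 1 air column carries a number that no air label has; it entered as air, unnumbered. The replicates are biological according to the methods. The MYB members, groups and gene lists were chosen with earlier results of these data known. Named members followed a rule: those called (up to 10 per direction), in addition up to 6 per direction with a log2FC beyond 1, libraries apart and at least 1 CPM where fewer than 6 were called, the 2 of highest mean, those whose best hit recurred in the same direction in 2 or more species, and the most abundant of the MYB2, MYB44 and 3R groups. The text says which others were picked after their values were seen. The group names of 17 single-repeat and other best hits were added after the tables were read. Alternatives were pseudocounts of 0.1 and 5 CPM, a filter at a mean of 1 CPM, library totals, median-ratio factors, no variance trend, FDR under 0.05, no minimum change, the first list of R2R3, 3R and 4R best hits alone (without those 17, which include DUO1), each library left out, a replicate block and summed transcripts. The block on summed transcripts was added after seeing the data.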

Additional observations from a re-analysis of the deposited data

Results flagged for a closer look

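Summed over the features of a best hit, 10 best hits had hypoxia and air libraries apart in 2 or more species, and for 6 of these every library moved one way in 1 species and the other way in another. The remaining 4 moved the same way in each such species. Of single features, 9.66% to 30.1% by table were apart and higher at any size of change, and 9.38% to 30.4% apart and lower. These differences between species were not tested, several are far smaller than 1 log2 unit, and the values are log2FC of the sums on log2(CPM + 1). MYB44, of abscisic acid signalling, was 0.13 in the liverwort, 0.80 in the lycophyte, 0.76 in the horsetail and -0.56 in the fern. MYB20, of secondary walls, was -1.23 in *M. polymorpha* and 0.12 in *P. patens*. MYB16, of the epidermis, was 0.98 in *M. polymorpha* and -0.08 in *S. moellendorffii*, where its level was 0.84 and 0.88 CPM under hypoxia against 1.05 and 0.91 CPM in air. KUA1 was -0.09 in the liverwort, 0.14 in the moss, 0.14 in the lycophyte and 0.12 in the fern. SWC4, a subunit of a chromatin remodeller, was 0.22 in *S. moellendorffii* and -0.17 in *P. vittata*. AT2G01060 was -0.11 in the liverwort, -0.06 in the lycophyte and 0.05 in the fern.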

How the results depend on the processing

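With 2 libraries against 2, the calls of the liverwort rest on each air library. Leaving out each library in turn, the called counts ran from 0 to 2 higher and 0 to 3 lower, and the libraries-apart counts from 1 to 2 higher and 2 to 3 lower. The apart counts ran from 1 to 2 higher in the lycophyte, 3 to 5 higher and 0 to 1 lower in the horsetail, and 1 to 2 higher and 0 to 1 lower in the fern, and all other counts stayed at 0. A fit that leaves 1 sample in a group assumes that it varies like the others.

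With a pseudocount of 5 CPM, 0 members were called higher in the liverwort, and 0 were higher by libraries apart in the liverwort, the lycophyte, the horsetail and the fern. With 0.1 CPM, 1 was apart and higher and 1 apart and lower in the moss, 8 higher and 2 lower in the horsetail, and 1 lower in the fern. Without a minimum change, 2 were called higher in the liverwort, and the apart counts were 7 higher and 9 lower there, 14 and 11 in the moss, 15 and 8 in the lycophyte, 24 and 10 in the horsetail, and 16 and 11 in the fern. Of all features, 30.1% and 30.4%, 20.5% and 20.9%, 26.0% and 23.5%, 9.66% and 9.38%, and 21.6% and 20.9% were apart without a minimum change, in the same order of species. With the first list of R2R3, 3R and 4R best hits alone, which lacks DUO1 and the HRS1/HHO, MYB-CC and KUA1-type hits, 0 were called or apart and higher in the liverwort, 2 apart and higher in the horsetail and 0 in the fern. At an FDR under 0.05 by limma, 2 were called higher in the horsetail, and with library totals or with summed transcripts 0 were apart and higher in the fern. The shares of all features are not given for the other pseudocounts, for library totals, for an FDR under 0.05 or for calls without a minimum change. Counts of members under these settings thus have no background here and are not read as traits of the family. The causes of these shifts were not tested.

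Named members with a log2FC near zero changed sign when single libraries were left out. Mapoly0150s0001.1 ran from -0.44 to 0.18 (above zero without air replicate 2), and Pp3c20_8950 from -0.13 to 0.10, with 0.049 and 0.098 without hypoxia or air replicate 3. Ehym_DN109300_c1_g1 ran from -0.21 to 0.14 (above zero without hypoxia replicate 4), and Ehym_DN109751_c5_g2 from -0.19 to 0.12, with 0.0089 without air replicate 4. TRINITY_DN28716_c0_g2_i3 ran from -0.063 to 0.14 and was -0.014 with library totals.

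Same-numbered libraries did not deviate together (r = 0.031 in the liverwort, -0.109, -0.075 and -0.276 in the horsetail, 0.061 in the fern and 0.134 in its summed transcripts, each of the fern's from 2 pairs), so the numbers were not taken to pair the samples. With the replicate block, 1 member was called higher and 3 lower in the liverwort and 0 in the horsetail and the fern, as without it. With the block on the fern's summed transcripts, chosen after seeing the data, 0 of 33 MYB genes were called (smallest FDR by limma 0.0489, against 0.0972 without it), although 252 of all Trinity genes were, against 8 without it. No paired analysis was possible in the moss because its groups share 1 number. In the lycophyte the labels number both groups alike, but 1 air column is headed by a number that no air label has, so the columns share 1 number and none was possible there either. The same-numbered pair had r = -0.106 in the moss and -0.351 in the lycophyte.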

Other observations

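Features with listed MYB best hits whose descriptions did not match the MYB terms stayed outside the set. There were 36, with 11 best hits in all, and 18 of them were in *P. vittata*. None was called by limma. By libraries apart with a log2FC beyond 1, 1 was higher, TRINITY_DN34286_c0_g1_i3 with the best hit MYB19, at 6.40 and 3.54 CPM under hypoxia against a listed 0 and 2.34 CPM in air. Its Trinity gene, TRINITY_DN34286_c0_g1, which also holds transcripts with the best hits MYB61 and MYB20, had 55.7 and 43.0 CPM under hypoxia against 43.7 and 43.1 CPM in air, and these groups overlapped. The 3R best hit MYB3R1 had 7 such features, 3 above zero and 4 below, of which 1 was apart and higher and 3 were apart and lower. At any size of change, 9.66% to 30.1% of all features by table were apart and higher and 9.38% to 30.4% apart and lower. With so few features, whether they lean to either side beside these shares cannot be told. The highest log2FC, 0.47 for Pp3c14_14030, rests on 0.91 CPM in 1 hypoxia library, with its other 3 libraries listed at 0. Ehym_DN99246_c0_g1 had a log2FC of 0.38, locus 75978 one of 0.04, and the lower ones were Pp3c10_10240 at -0.54, Pp3c14_14040 at -0.40, Mapoly0036s0107.1 at -0.32 and Ehym_DN99246_c1_g1 at -0.13.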
